A study of Homo sapiens with 2 samples.

Results

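The genes examined here build and use the pre-B cell receptor: VPREB1, IGLL1, CD79A, CD79B, BLNK and IGHM, together with RAG1, RAG2 and DNTT, whose products assemble the receptor's gene segments. Of 49245 chromatin interactions recovered with TCF3::HLF, 52 had a bin of 5 kb within 50 kb of the GENCODE body of at least 1 of these 9 genes, and these 52 are described below. The recombination and adaptor genes held most of them, with 15 at the RAG1 and RAG2 locus and 14 at the neighbouring DNTT and BLNK genes, and VPREB1 held another 14. CD79A had 5, CD79B had 2, and IGLL1 and IGHM had 1 each.

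The data are TCF3::HLF-HiChIP, which joins chromatin conformation capture to immunoprecipitation and so lists pairs of genomic bins held together in chromatin that carries the precipitated protein. The cells were TCF3-KO HAL-01 cells, a human t(17;19) B cell acute lymphoblastic leukemia line in which CRISPR disrupted the wild-type TCF3 allele, so that an antibody to TCF3 precipitates the TCF3::HLF fusion. Per the study's methods the cells also carried Cas9 and a fluorescent reporter and were grown from colonies after limiting dilution, so a result describes a line of clonal origin. There were 2 replicates of this 1 condition, merged before the interactions were called, so no replicate spread, untreated group or test between groups exists for any value below. The deposited list gives no expression, and the B cell identity of the line was not checked against marker genes here. Each contact count is a number of read pairs, not normalized. Exact 95% Poisson intervals are given for it and cover counting error only. Copies made by PCR were left among the reads, and merging hides the spread between replicates, so these intervals are lower limits on the error. The listed read pairs summed to 1268490 over all interactions and to 1339 over the 52.

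In a developing B cell the RAG1 and RAG2 proteins form the recombinase that cuts immunoglobulin gene segments, and DNTT (terminal deoxynucleotidyl transferase, TdT) adds untemplated bases where the ends are joined. Once a heavy chain has been made, IGHM gives its mu constant region, VPREB1 and IGLL1 pair with it as the surrogate light chain, and CD79A and CD79B carry the signal into the cell, where the adaptor BLNK links the kinase SYK to its targets. RAG1 and RAG2 lie side by side and are transcribed towards each other. The mouse Rag genes are known to depend on distant enhancers in B cell progenitors. VPREB1 sits inside the immunoglobulin lambda light chain locus. HLF is a PAR bZIP factor, and the fusion keeps its DNA binding domain, which recognizes the palindrome TTACGTAA and close relatives.

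The exact letters TTACGTAA or TTATGTAA, on either strand, were looked for in all bins. They occurred at 21 places in 18 of the 67 bins of the 52 interactions. TTATGTAA accounted for 20 of these places and TTACGTAA for 1. No place fell in an annotated exon, 11 were intronic and 10 intergenic in GENCODE release 44. Of the 21, 9 are printed below, picked from bins near RAG1, BLNK, CD79A and VPREB1 and from some of their partner bins to show where the motif lies, with 11 reference bases on each side, 5′ to 3′ on the strand that carries the motif, in hg38 coordinates. Capitals mark the motif. A match is a description of the reference letters and does not show that the protein bound there.
RAG1 intron, near the upstream RAG1 start, chr11:36511854-36511883, minus strand: gttcatggaggTTATGTAAcctgccccaga
PRR5L intron, partner of the RAG1 start bin, chr11:36320565-36320594, minus strand: actcacagacaTTATGTAAcatgagggagg
IFTAP intron, partner of the RAG1 start bin, chr11:36664392-36664421, plus strand: cttacccagctTTATGTAAtatggccctta
BLNK intron, chr10:96221638-96221667, minus strand: aatactgtgggTTATGTAAggctcttcatt
ZNF518A intron, partner of the BLNK bin above, chr10:96165843-96165872, plus strand: agggaattaggTTATGTAAttatggaggct
CD79A intron, chr19:41880526-41880555, minus strand: ccacatactggTTATGTAAcagttctctct
XRCC1 intron, partner of a bin upstream of CD79A, chr19:43562947-43562976, plus strand: gcaggaagtggTTATGTAActtcacagctg
Upstream of VPREB1, intergenic, in the bin with most interactions, chr22:22190219-22190248, minus strand: tccctttaccaTTATGTAAcagccttgtct
TXNRD2 intron, distant partner of a bin upstream of VPREB1, chr22:19887180-19887209, plus strand: gtaagagcttaTTACGTAAtggatacatga

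All 9 genes had at least 1 interaction within 50 kb, which was also true of 84.3% of 19970 protein-coding genes, so being listed did not set these genes apart. At least 10 interactions were found for 5 of the 9 (RAG1 15, VPREB1 14, BLNK 11, RAG2 10 and DNTT 10), against 21.3% of protein-coding genes. The members share interactions, however: all 10 of RAG2 were among those of RAG1, and DNTT and BLNK had 7 in common, which is 70% of DNTT's and 63.6% of BLNK's. The 5 genes are therefore 3 separate places in the genome. A protein-coding gene had a median of 4 interactions, with quartiles of 1 and 8. Fewer interactions than RAG1's 15 were found for 88.3% of protein-coding genes, and fewer than VPREB1's 14 for 87% of them. At the other end, only 15.7% of protein-coding genes had fewer than the 1 interaction of IGLL1 and of IGHM. Long genes have wider windows, so the counts were also set per 100 kb of window, where VPREB1 led with 13.9 and RAG1 and RAG2 followed with 8.21 and 8.15, against a median of 2.41 for protein-coding genes.

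**Figure D1:**
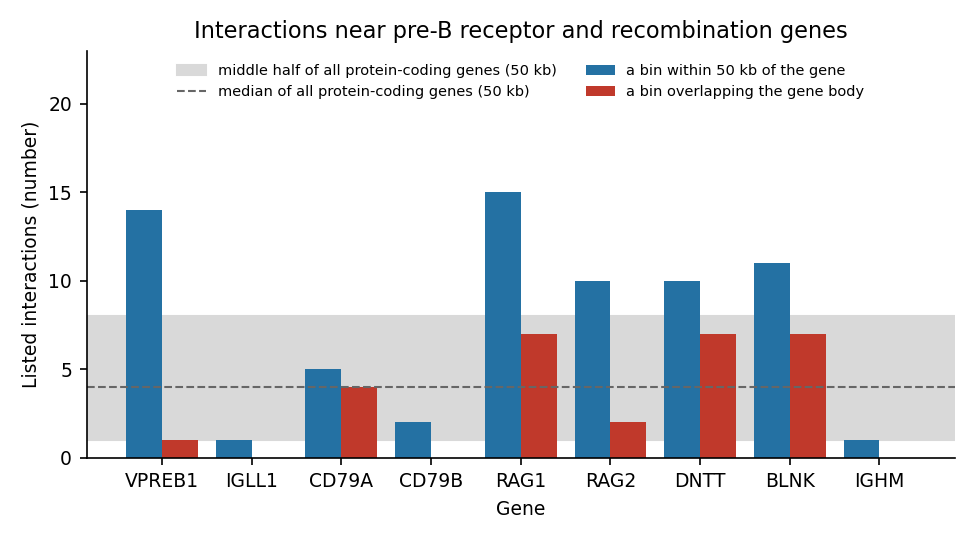
Number of listed interactions (y axis) for each of the 9 genes (x axis), with a bin within 50 kb of the gene body (blue) and with a bin overlapping the body itself (red). The dashed line is the median of 19970 protein-coding genes (4) and the grey band their quartiles (1 and 8), both for the window of 50 kb. RAG1, VPREB1, BLNK, RAG2 and DNTT stand above the band, RAG1 and RAG2 share 10 interactions, and of VPREB1's 14 only 1 touches the gene itself.

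At the RAG locus the strongest interaction of the whole group joined the RAG1 coding region to a place upstream of RAG2. The bin at chr11:36570001-36575000, which holds RAG1 coding sequence and ends 0.6 kb short of RAG2, was joined to chr11:36620001-36625000, which lies in an intron of IFTAP and 21.7 kb upstream of the RAG2 start. This pair had a contact count of 76 read pairs (95% Poisson interval 59.9 to 95.1) at a distance of 50 kb, the shortest that was called, and a P value from the caller of 2.88e-52. All listed interactions at that distance had a median contact count of 27, so the pair stood 2.81 times above it, and it ranked 35 of 1393. The pair stood for a merged group of bin pairs whose contact counts summed to 116. The first range of that group, chr11:36565001-36575000, also holds the RAG1 start at 36568007 that is closest to the coding exon, and the remaining pair of the group accounted for the other 40 read pairs.

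The IFTAP intron bin upstream of RAG2 took part in 6 of the 15 interactions of the locus, with 199 read pairs in all. Besides RAG1 it reached a TRIM44 intron 835 kb away with a contact count of 36 (25.2 to 49.8), the highest of the 66 listed interactions at that distance and 1.71 times their median of 21. Its other contact counts were 18 with an intergenic bin at 780 kb, 25 with a bin in TRAF6 at 120 kb, 27 at 80 kb and 17 at 125 kb. None of these 4 exceeded the median of its distance. The bin held no HLF motif, and neither did any of its 6 partners. Some, but not all, mouse Rag enhancers lie on the Rag2 side of the locus. Whether the IFTAP bin or any other bin here corresponds to one of them was not tested.

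The second bin with several interactions was at the upstream RAG1 start. GENCODE places 4 RAG1 transcript starts between 36510372 and 36510709, more than 50 kb upstream of the coding exon, in the bin chr11:36510001-36515000. The same bin holds a start of TRAF6, which encodes a ubiquitin ligase of toll-like and interleukin receptor signaling, so an interaction at this bin cannot be assigned to either gene. The bin had 5 interactions, all within 235 kb. The strongest, with 35 read pairs (24.4 to 48.7), reached a PRR5L intron 190 kb away, 1.40 times the median of its distance. The next reached an intergenic bin 235 kb away with 31 (21.1 to 44), 1.24 times the median. The remaining 3 had contact counts of 24, 21 and 18 and stayed below the medians of their distances. They reached an intron shared by RAG1 and RAG2 at 75 kb, IFTAP at 150 kb and an intergenic bin at 225 kb. The RAG1 start bin held the RAG1 intron site printed above, 1.2 kb from the nearest RAG1 start, and 2 of its 5 partners, in PRR5L and IFTAP, held a site as well. All other RAG interactions but 1 had no motif in either bin, so the locus contained 6 with a motif and 9 without.

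The starts of RAG2 themselves, in the bins 36590001-36595000 and 36595001-36600000, took part in no listed interaction. The start at 36594755 lies in the bin next to chr11:36585001-36590000, which met the upstream RAG1 start bin with 24 read pairs, as given above. Nearest to the outermost RAG2 start, at 36598279, was the bin chr11:36605001-36610000, 6.7 kb upstream. It met an LDLRAD3 intron at 560 kb with 31 read pairs (21.1 to 44). It also met the bin of an IFTAP start at 65 kb with 15 (8.4 to 24.7). The first was 1.35 and the second 0.58 times the median of its distance. The longest interaction of the locus ran 1.55 Mb from a bin that holds RAG1 coding sequence and the 3′ end of RAG2 to an intergenic bin with a motif at chr11:38125001-38130000. It rested on 15 read pairs (8.4 to 24.7), 0.67 times the median, and that distant bin took part in 11 listed interactions altogether.

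DNTT and BLNK lie 32.8 kb apart on chromosome 10 and were linked to each other directly. A BLNK exon-containing bin at chr10:96225001-96230000 was joined to the DNTT intron bin chr10:96310001-96315000 by 26 read pairs (17 to 38.1) and a second BLNK bin, at 96240001-96245000, by 23 (14.6 to 34.5). These values were 1.00 and 0.88 times the medians of their distances of 85 and 70 kb, so the link was of ordinary strength for the list. The DNTT intron bin was the most connected one near these genes, with 5 interactions and 146 read pairs. Its strongest contact, and the strongest of the locus, was 45 read pairs (32.8 to 60.2) with an intron of TLL2, a tolloid-like metalloprotease gene, at 185 kb, to which the caller gave a P value of 5.08e-25. That was 1.88 times the median of 24 and ranked 21 of 450. The same DNTT bin reached ARHGAP19 at 910 kb with 30 read pairs (20.2 to 42.8, 1.25 times the median) and a TLL2 exon-containing bin at 110 kb with 22 (0.88 times). The bin 31.4 kb downstream of DNTT also reached ARHGAP19, at 905 kb, with 23 read pairs (0.98 times).

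Beyond BLNK's 3′ end, a bin at chr10:96015001-96020000 within CC2D2B and the antisense transcript ENTPD1-AS1 fanned out over both genes. It joined 2 BLNK bins, 2 DNTT bins and a bin 31.4 kb downstream of DNTT, at distances from 210 to 355 kb. The contact counts were 31 (21.1 to 44) and 14 with BLNK, 16 and 20 with DNTT and 19 beyond DNTT. Only the first exceeded the median of its distance, at 1.24 times. This bin had 11 listed interactions in all and no HLF motif. The motif occurred in 3 of the 16 bins of the locus. The BLNK intron site printed above faced the ZNF518A intron site, 55 kb away, with 30 read pairs (20.2 to 42.8, 1.15 times the median), and this was the only interaction of the locus with a motif at both ends. The BLNK site bin also reached an intergenic bin between BLNK and DNTT with 30 read pairs at 65 kb, and a BLNK bin without a motif reached an intron of LCOR with a motif at 670 kb (23 read pairs, 1.00 times the median). The starts of neither gene were in a listed bin: the nearest bins lay 5.6 kb from the DNTT start and 13.4 kb from the main BLNK start.

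**Figure D2:**
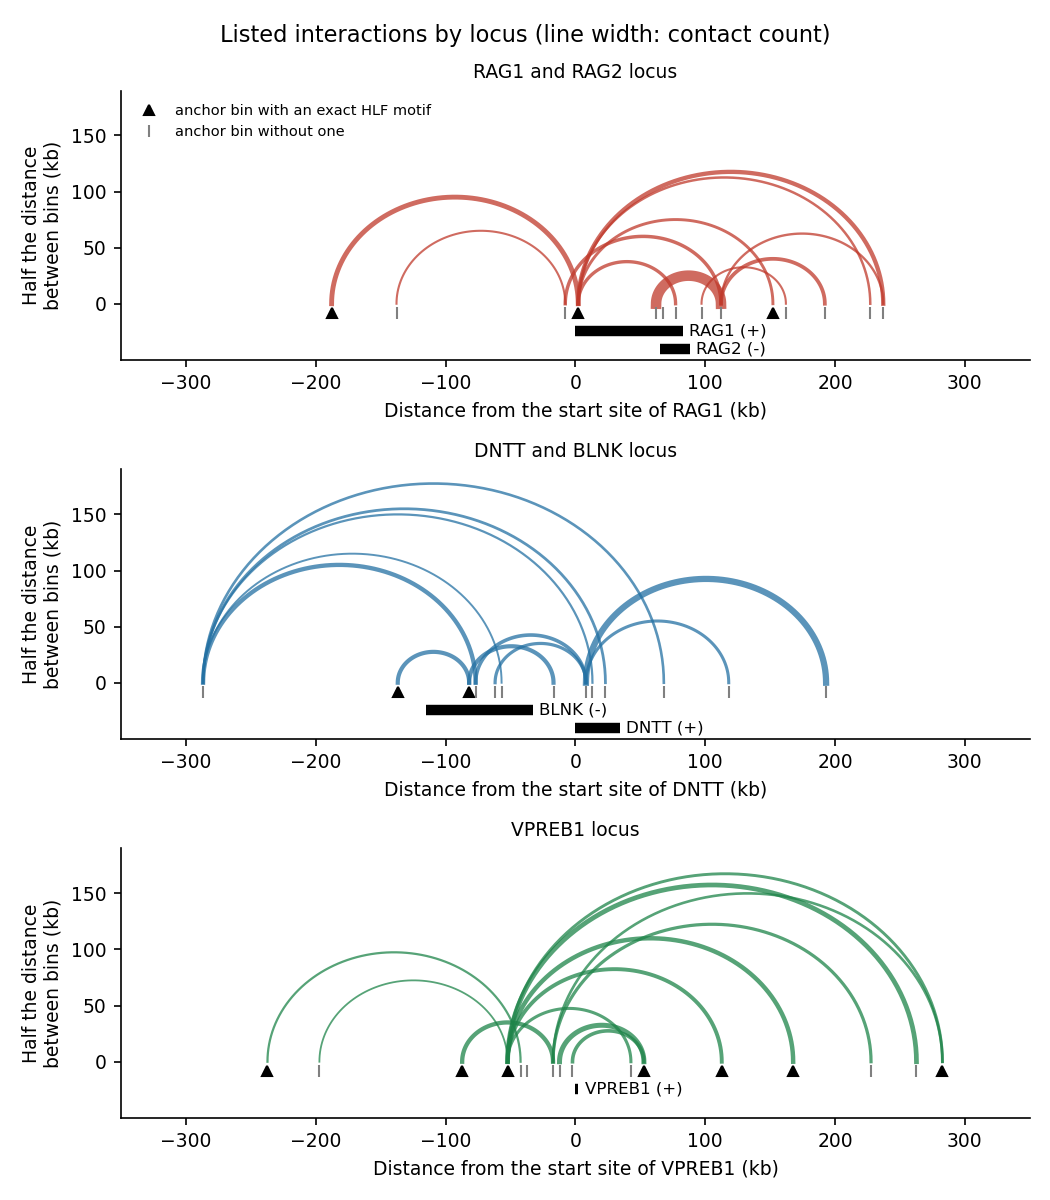
Interactions at the RAG, DNTT and BLNK, and VPREB1 loci drawn as arcs along the distance in kb from the named gene's start (x axis). Arc height rises in proportion to the distance between the bins and line width is proportional to the contact count, triangles mark bins with an exact HLF motif and ticks bins without one. Of 15, 14 and 14 interactions, 11, 11 and 12 are drawn and the longer ones left out; the widest arc is the RAG1 pair of 76 read pairs, and motif triangles are most frequent in the VPREB1 panel.

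VPREB1 is a short gene of 0.74 kb, and its 14 interactions were mostly those of its surroundings in the lambda locus. Only 1 touched the gene: the bin with the VPREB1 start, chr22:22240001-22245000, met chr22:22295001-22300000, 49.5 kb downstream of the gene, with 26 read pairs (17 to 38.1) at 55 kb. This equals the median of its distance. The same downstream bin had the interaction with the smallest P value near VPREB1 (3.97e-27), which reached 9.8 kb upstream of the gene with 36 read pairs (25.2 to 49.8), 1.38 times the median. The downstream bin carries a site and both bins on the VPREB1 side do not.

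Of the 14, 7 came from a single intergenic bin, chr22:22190001-22195000, which carries the printed site and lies at the edge of the window, 49.8 kb upstream of VPREB1. Its contact counts were 34 (23.5 to 47.5) with the bin of a ZNF280B start at 315 kb, 32 (21.9 to 45.2) with the bin of the lambda variable segment IGLV1-40 at 220 kb, 30 (20.2 to 42.8) with TANGO2 at 2.125 Mb and 28 (18.6 to 40.5) with the bin of IGLV1-47 at 165 kb. The ratios to the medians of their distances were 1.42, 1.33, 1.13 and 1.14. The other 3 had 22, 21 and 13 read pairs and were below their medians, the last with the lowest ratio of the 52, 0.54 times. The partners at IGLV1-40 and IGLV1-47 carried TTATGTAA too. Just outside the window, the adjacent bin chr22:22185001-22190000, 54.8 kb upstream, had 6 interactions and no motif, and these are not among the 14. VPREB1's count thus depends on where the window ends, and with a window of 25 kb it was 5.

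The bin 14.8 kb upstream of VPREB1 had 3 interactions, of which the strongest, with 31 read pairs (21.1 to 44), met an intergenic bin at chr22:22155001-22160000 that holds 3 TTATGTAA sites. The longest VPREB1 interaction ran 2.32 Mb to the TXNRD2 intron bin, the only bin among the 67 with TTACGTAA, on 16 read pairs (9.15 to 26, 0.67 times the median), and that bin took part in 13 listed interactions. In all, 13 of the 14 had a motif in at least 1 bin. Without the bin that was in 7 of them, 6 of the other 7 did. Contacts are placed on the reference order of the lambda locus. Rearrangement of that locus in these cells, which would change true distances, was not analysed here.

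IGLL1, which encodes the lambda5-like partner of VPREB1, lies more than 1 Mb further along chromosome 22 and had 1 interaction. A bin at PCAT14, 33.1 kb downstream of IGLL1, met the bin of the lambda variable segment IGLV3-19 at 815 kb with 27 read pairs (17.8 to 39.3), 1.29 times the median of its distance, and no motif in either bin. The IGLV3-19 bin had 8 interactions in the list. No listed interaction joined the window of VPREB1 to that of IGLL1. The list holds 1375 interactions between 1.2 and 1.45 Mb, the range such a contact would span, and the weakest of them has a contact count of 11. Listing was decided by the caller's q value and not by the count, so a contact above or below 11 could be missing.

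IGHM had 1 interaction, between chr14:105820001-105825000, 26.7 kb downstream of the gene on the side of the other constant regions, and chr14:105750001-105755000, with 24 read pairs (15.4 to 35.7) at 70 kb. That was 0.92 times the median, and neither bin held a motif. Seen over the whole loci, the heavy chain locus was touched by 23 interactions and the lambda locus by 35, of which 16 and 23 had both bins inside. Counting bins, the lambda locus had 65 ends of interactions per Mb against 31.6 on chromosome 22 as a whole, and the heavy chain locus 30.2 against 28.3 on chromosome 14, over reference lengths with gaps included. Gaps can hold no interaction and so lower the chromosome values. The small difference at the heavy chain locus is therefore not read as an excess. Within the heavy chain locus, the bins with most interactions were that of the variable segment IGHV3-71, with 7, and that of IGHV4-80 and IGHV7-81, with 5. Segments annotated as genes and as pseudogenes were not told apart here.

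CD79A, which encodes Ig-alpha, had 5 interactions, near the median of 4 for protein-coding genes. Their distances ran from 55 kb to 2.75 Mb. The median distance was 975 kb, against 255 kb for the whole list, but it rests on only 5 values. Of the 5, 4 stood above the medians of their distances. In 4 of them the bin was chr19:41880001-41885000, which holds the 3′ end of CD79A, the CD79A intron site printed above and the start of ARHGEF1, so these cannot be assigned to either gene. The contact counts of this bin were 29 (19.4 to 41.6) with PAK4 at 2.75 Mb, 22 (13.8 to 33.3) at 975 kb, 31 (21.1 to 44) at 65 kb and 17 (9.9 to 27.2) at 55 kb, and their ratios were 1.53, 1.10, 1.19 and 0.65. The PAK4 interaction ranked 3 of 14 at its distance. The fifth interaction joined a bin 17.3 kb upstream of CD79A to the bin of the XRCC1 start at 1.705 Mb, with 36 read pairs (25.2 to 49.8), the highest of the 13 listed at that distance and 1.50 times their median of 24. XRCC1, a scaffold protein of single-strand break repair, carries the intron site printed above. These rank positions rest on few interactions. The CD79A start bin itself was in none.

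CD79B, which encodes Ig-beta, had 2 interactions, both away from the gene. The bin at CSH1, 33.7 kb downstream, met an intergenic bin with a TTATGTAA site at chr17:64025001-64030000 with 35 read pairs (24.4 to 48.7) at 135 kb, 1.40 times the median. The bin 42.7 kb upstream met a bin 765 kb away with 15 (8.4 to 24.7), 0.68 times the median. The bins of this interaction shared 34 stretches of 31 identical bases. Growth of the window to 100 kb raised the count of CD79B from 2 to 13, the largest change of any of the 9 genes.

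Interactions with a bin at a transcript start were found for 2 of the 9 genes, RAG1 with 5 and VPREB1 with 1, against 26.6% of protein-coding genes with at least 1. RefSeq promoters of 300 bases, mostly upstream of the start, on GRCh38.p14, were given for 7 of the 9 genes. None of the 7 held TTACGTAA or TTATGTAA. Only 355 of all 35116 promoters (1.01%) did, so having none among 7 does not set these genes apart.

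Set beside the whole list, the 52 were of ordinary strength. Their median contact count was 24, as in the list as a whole, and the ranges were 13 to 76 and 7 to 615. The contact count exceeded the median of its distance in 22 of 52 (42.3%, 95% Wilson interval 29.9 to 55.8), against 47.6% of all interactions, and the median ratio was 1.00. Q values under 1e-05 were given to 71.2% (57.7 to 81.7) of the 52 and 66.5% of the list. Distances of over 1 Mb made up 9.62% (4.18 to 20.6) and 13.7%. A motif in at least 1 bin was found for 28 of the 52, or 53.8% (40.5 to 66.7), against 66.8% of all interactions. These Wilson intervals treat interactions as independent, whereas many share a bin. The share differed between the loci: 13 of 14 at VPREB1, 5 of 5 at CD79A, 6 of 15 at the RAG genes and 3 of 14 at DNTT and BLNK. The difference was not tested, since a shared bin with or without a site sets several interactions at once. At CD79A 4 of the 5, and at VPREB1 7 of the 14, involve 1 bin with 1 site each. Of these 7 at VPREB1, 3 have a motif in the partner bin as well. At the RAG genes 5 of the 6 with a motif involve the upstream RAG1 start bin, which holds 1 site. The most connected bins of the RAG and the DNTT and BLNK loci, with 6 and 5 interactions, held none. Counted by bin, 18 of 67 (26.9%) held a motif, against 31.5% of the 53535 bins of the list.

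**Figure D3:**
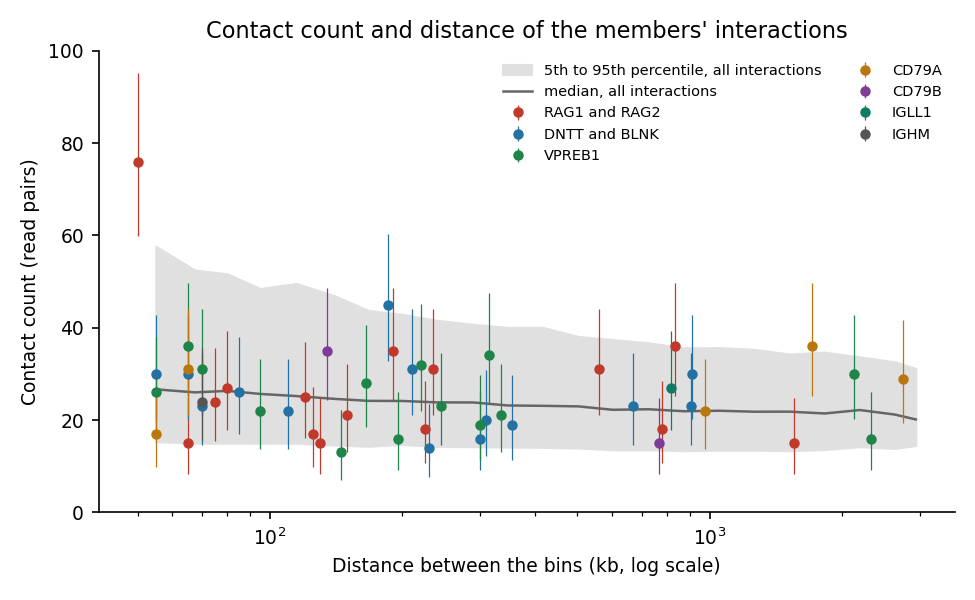
Contact count in read pairs (y axis) against the distance between bins in kb (x axis, log scale) for the 52 interactions, coloured by locus, with exact 95% Poisson intervals. The grey line is the median and the grey band the 5th to 95th percentile of all 49245 interactions, averaged over neighbouring distances; most of the 52 lie within the band, and the RAG1 pair of 76 at 50 kb stands apart from the other members.

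Of the 67 bins, 31 lay within 50 kb of a member and 36 were partners farther away. Among the 31, 4 (12.9%) took part in 5 or more interactions, against 8.6% of all bins of the list. They were those upstream of VPREB1 (7), upstream of RAG2 (6), at the upstream RAG1 start (5) and in DNTT (5). Among the 36 farther partners 9 did (25%), such as the TXNRD2 bin. A bin with many interactions is also reached more often by any other bin, so these shares are a description.

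Other genes of the pathway were counted in the same way. Of 12 further genes of pre-B receptor signaling, 10 had at least 1 interaction within 50 kb, near the 84.3% of all protein-coding genes, and the median of the 12 was 4.5, beside 4 for all protein-coding genes. SYK, the kinase recruited to CD79A and CD79B, had the most with 13, its largest contact count being 42. PIK3AP1 had 9 with a largest contact count of 59, GRB2 8 with 57 and PIK3CD 8 with 44. PTPN6 had 6, CD22 5, BLK and PLCG2 4 each, BTK 3 and LYN 2, while VPREB3 and VAV1 had 0. An interaction in a start bin was found for 5 of the 12: PLCG2, GRB2, PIK3CD, PIK3AP1 and LYN, against 26.6% of all protein-coding genes. Of 14 genes of the joining step of V(D)J recombination, 13 had at least 1, again near the 84.3% of all protein-coding genes, with a median of 6.5. A start bin was involved for 4 of the 14, XRCC5, DCLRE1C, PRKDC and HMGB2, against the same 26.6%. XRCC5, which encodes Ku80, had 45, more than 99.1% of protein-coding genes, and ATM, the double-strand break kinase, had 26. Only 1 of the 45 of XRCC5 and 0 of the 26 of ATM had a bin at a transcript start. Their windows were 198.8 and 246.1 kb wide, so most of these interactions are those of the surroundings. HMGB2, a cofactor of RAG cleavage, had 10 within a window of 103.1 kb, with a largest contact count of 60 that was 2.55 times the median of its distance. DCLRE1C, which encodes the nuclease Artemis, had 8, as did POLM and HMGB1. The others were XRCC6 with 7, PRKDC with 6, XRCC4 with 4, NHEJ1 with 3, PAXX and TP53BP1 with 2 each and POLL with 1, and LIG4, the ligase of the pathway, had 0. A count of 0 means only that no pair passed the caller's threshold at this depth.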

How the data were processed

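HiChIP was made from TCF3-KO HAL-01 cells with a TCF3 antibody after MNase digestion, in 2 replicates of 1 condition. Per the study's methods the authors trimmed reads with Trim Galore 0.6.6, merged the replicates, aligned them to hg38 with BWA-MEM, extracted pairs with pairtools without removing duplicates, called MACS2 peaks and ran FitHiChIP (version not given in the sources used here) on bins of 5 kb for distances of 50 kb to 3 Mb at a q value under 0.01, with nearby contacts merged. The deposited list of 49245 interactions gives read pair counts, which are not normalized, and the sum of those counts over each merged group. The deposited p-values and q-values are bias-corrected values of the caller, and the deposited fraction of significant bin pairs in a group was read only to describe merged groups. Depth per replicate is unknown, and only pairs past the threshold are listed, so unlisted pairs have no value.

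From these files, rows were taken with either listed bin within 50 kb of a member's gene body (GENCODE release 44), positions being given from 1. Each contact count received an exact 95% Poisson interval and was divided by the median of all interactions at the same distance. Shares have 95% Wilson intervals. Motifs were exact matches in hg38. Bins of 1 interaction shared at most 34 stretches of 31 identical bases. Python 3.11.15, pandas 2.3.3, scipy 1.17.1 and numpy 2.4.6 were used, and counting and motif steps were tested on simulated data. No test was made, since there is 1 condition and no replicate values. The members and the pathway lists were chosen with earlier results of these data known. Named were the members, for each the interaction with the smallest P value, that with the largest contact count and all at a transcript start, the coding genes starting in their partner bins, and the pathway lists, of which 1 gene is not reported here. Other bins and genes, picked with their values in view, are named where several interactions met or to say where a bin lies. The alternatives covered other windows, thresholds, merged ranges, distance tolerance, motif forms and RefSeq gene bodies.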

Additional observations from a re-analysis of the deposited data

How the results depend on the processing

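No paired analysis was possible because both replicates belong to 1 condition and were merged before deposit, and for the same reason no replicate could be left out. The 52 interactions became 80 with a window of 100 kb and 24 when a bin had to overlap a gene body. The median per gene, 10 in the text, was 5 with a window of 25 kb, 2 with overlap of the body, 6 with a q value under 1e-05 and 6 with a contact count of at least 20. With 25 kb IGLL1, CD79B and IGHM had 0. The share of protein-coding genes with at least 1 interaction, 84.3%, was 75.9% with 25 kb, 91.1% with 100 kb and 77.7% with a q value under 1e-05. The share of the 52 with a motif, 53.8%, was 1.92% when only TTACGTAA was searched, against 8.34% of all interactions, and 42.3% against 45.6% when 1 mismatch to TTACGTAA outside the central bases was allowed. Under each motif rule the share of the 52 was below that of all interactions. However, the TTACGTAA share rests on 1 interaction, and the shares with a mismatch were close. Whether the 52 differ from the list was not tested. The strongest RAG1 pair, 2.81 times the median of its distance, was 4.30 times with the sum over its merged group. RefSeq gene bodies, an alternative chosen after seeing the data, and merged ranges gave the same 52. Pairs below the caller's threshold are not listed, so the depth of the merged libraries limits every count.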
